A study of Mus musculus with 5 samples.

Results

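The extracellular proteases and their inhibitors described here are the matrix metalloproteinases (MMPs), the membrane-bound ADAM proteins, the secreted ADAMTS proteases, the ADAMTS-like proteins and the tissue inhibitors of metalloproteinases (TIMPs). They were chosen by gene symbol, with earlier results of these data known. Every symbol starting with Mmp, Adam, Adamts or Timp in the form of these families was taken, and the brightest probe stood for each gene. This gave 76 of 17742 named genes, read by 89 probes: 21 MMP, 27 ADAM, 19 ADAMTS, 5 ADAMTS-like and 4 TIMP genes. Expression was measured on 5 single-colour arrays, 1 for each group, during differentiation of the mouse embryonic stem cell (ESC) line 46C towards heart muscle. The day 0 ESCs, labelled control, grew on feeder cells in 15% serum with 1000 U/ml of leukaemia inhibitory factor, and the feeders were taken off before harvest. Control cells and Linc1405 knockdown cells, labelled mesoderm, were taken at day 4 in serum-free N2 and B27 medium with 0.2 ng/ml Bmp4, 5 ng/ml Activin A and 5 ng/ml VEGF. Control and knockdown cells, labelled cardiomyocytes, were taken at day 10 in StemCell Pro-34 medium with 10 ng/ml bFGF, 5 ng/ml VEGF and 25 ng/ml FGF10. Linc1405 is a long non-coding RNA, its own level was not analysed here, and the labels do not say whether the knockdown line was 1 clone. Titles of the knockdown arrays begin MES_1405KIpA and CM_1405KIpA, and no source used here explains KIpA.

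MMPs cut collagens, laminins and other matrix proteins outside the cell. ADAM proteins sit in the membrane and release the outer parts of growth factors, receptors and adhesion proteins, while ADAMTS proteases cut proteoglycans such as versican or trim procollagens. TIMPs block the active site of these enzymes, and in the embryonic heart versican turnover and matrix remodelling by these families accompany the formation of the chambers and valves.

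Several secreted MMP genes stand side by side in the genome, and the promoters of 4 of them are shown. These 4 are the genes of the cluster with both kinds of the letters marked below in 1 window. Of them, Mmp3, Mmp10 and Mmp13 had their highest value on the ESC array, while Mmp7 lay at the floor on all 5 arrays. The cluster on chromosome 9 held 8 member genes on the array: Mmp13, Mmp12, Mmp3, Mmp10, Mmp8, Mmp27, Mmp20 and Mmp7. The bases before each transcription start come from RefSeq on the mouse assembly GRCm38.p6, on the plus strand, and capitals mark the letters TGAGTCA (or TGACTCA on the other strand), the form bound by AP-1 factors, and TATAAA (or TTTATA on the other strand). The windows, each 250 bases long, are chr9:7445572-7445821 for Mmp3, chr9:7502092-7502341 for Mmp10, chr9:7272264-7272513 for Mmp13 and chr9:7691840-7692089 for Mmp7.
Mmp3: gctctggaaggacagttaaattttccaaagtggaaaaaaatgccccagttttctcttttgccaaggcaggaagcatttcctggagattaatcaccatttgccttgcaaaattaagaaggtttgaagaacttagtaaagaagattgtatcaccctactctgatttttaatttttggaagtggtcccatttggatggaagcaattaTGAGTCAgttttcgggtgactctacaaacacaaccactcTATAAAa
Mmp10: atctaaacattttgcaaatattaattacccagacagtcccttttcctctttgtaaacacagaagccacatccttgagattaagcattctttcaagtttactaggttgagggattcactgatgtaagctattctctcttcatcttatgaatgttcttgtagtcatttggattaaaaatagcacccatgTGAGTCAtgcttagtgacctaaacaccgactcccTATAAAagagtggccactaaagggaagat
Mmp13: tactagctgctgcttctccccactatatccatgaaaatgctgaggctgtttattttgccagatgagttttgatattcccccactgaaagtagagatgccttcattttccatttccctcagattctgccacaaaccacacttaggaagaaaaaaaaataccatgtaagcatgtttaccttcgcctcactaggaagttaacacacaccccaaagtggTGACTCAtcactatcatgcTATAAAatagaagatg
Mmp7: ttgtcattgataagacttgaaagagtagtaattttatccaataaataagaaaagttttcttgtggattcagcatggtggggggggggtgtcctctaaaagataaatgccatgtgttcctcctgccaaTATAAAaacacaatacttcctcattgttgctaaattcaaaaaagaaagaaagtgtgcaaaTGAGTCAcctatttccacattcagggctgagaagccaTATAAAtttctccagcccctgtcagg
A promoter was matched for 47 of the 76 members. Counts are of genes, and a gene counted when the window of any of its listed starts held the letters. The AP-1 letters were found for 5 of the 8 genes of the cluster (62.5%), 7 of the 47 members (14.9%) and 1395 of 27025 genes (5.16%). For Mmp12 they were only in the window of a second start, chr9:7347124-7347373, and the window chr9:7344147-7344396 held neither kind of letters. The TATAAA letters were in 5 of the 8 (62.5%), in 10 of the 47 (21.3%) and in 3872 of all (14.3%). Both were present in 1 window for 4 of the 8 (50%), namely the genes printed above, for 5 of the 47 (10.6%) and for 233 of all (0.862%). The AP-1 letters began 46, 63, 35 and 63 bases before the start in Mmp3, Mmp10, Mmp13 and Mmp7. A match describes the letters in this window and shows no binding. The stromelysin Mmp3, an activator of other MMPs, read 12.15 in ESCs, 7.42 and 6.83 in control and knockdown at day 4, and lay at the floor in both day 10 arrays (log2 of normalized intensity, with a floor of 6.64). The related stromelysin Mmp10 read 8.94 in ESCs and was at the floor on the other arrays, at least 2.30 lower, although its ESC value did not pass the intensity filter. The collagenase Mmp13 read 11.20 in ESCs, 9.87 and 9.94 in control and knockdown at day 4, and 9.04 and 9.10 at day 10. All 3 genes were thus brightest in ESCs, while Mmp7, whose window carries the same letters, was not measured above the floor in any group. Mmp12 and Mmp20, with 1 kind of the letters each, were also at the floor on all 5 arrays. A link between the letters and the ESC values was not tested.

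All values below are log2 of intensities that were quantile normalized over the 5 arrays, and a difference of 1 is a 2-fold change. Array medians as deposited were 344 to 745. The knockdown day 10 array, used in both comparisons with that group, had 1050 probes at or below 0 as deposited, and the other arrays 0 to 38. After quantile normalization, which makes the arrays alike in distribution, the floor held 19.0 to 19.1% of the probes of an array. A gene entered a comparison when the brighter of both arrays was at or above 9.16, the 50th percentile, and was counted when the arrays differed at least 2-fold. Of the 76 members, 48 passed this filter on some array and 28 on none, and 12 to 16 were at the floor on each array. With 1 array a group there is no spread between cultures, so no difference here has a replicate check and none was tested. The only error available was that between probes of the same gene, an SD of 0.21 for knockdown minus control at day 4, 0.27 at day 10, 0.61 for control day 4 minus ESC, 0.74 for control day 10 minus day 4 and 0.71 for the same interval in the knockdown line. The labelled cell types were checked on their markers: all 4 stem cell markers measured were at least 2-fold lower at control day 4 than in ESCs, all 5 mesoderm markers were higher there, and all 5 cardiomyocyte markers measured were higher at day 10 than at day 4 in both lines.

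**Figure D1:**
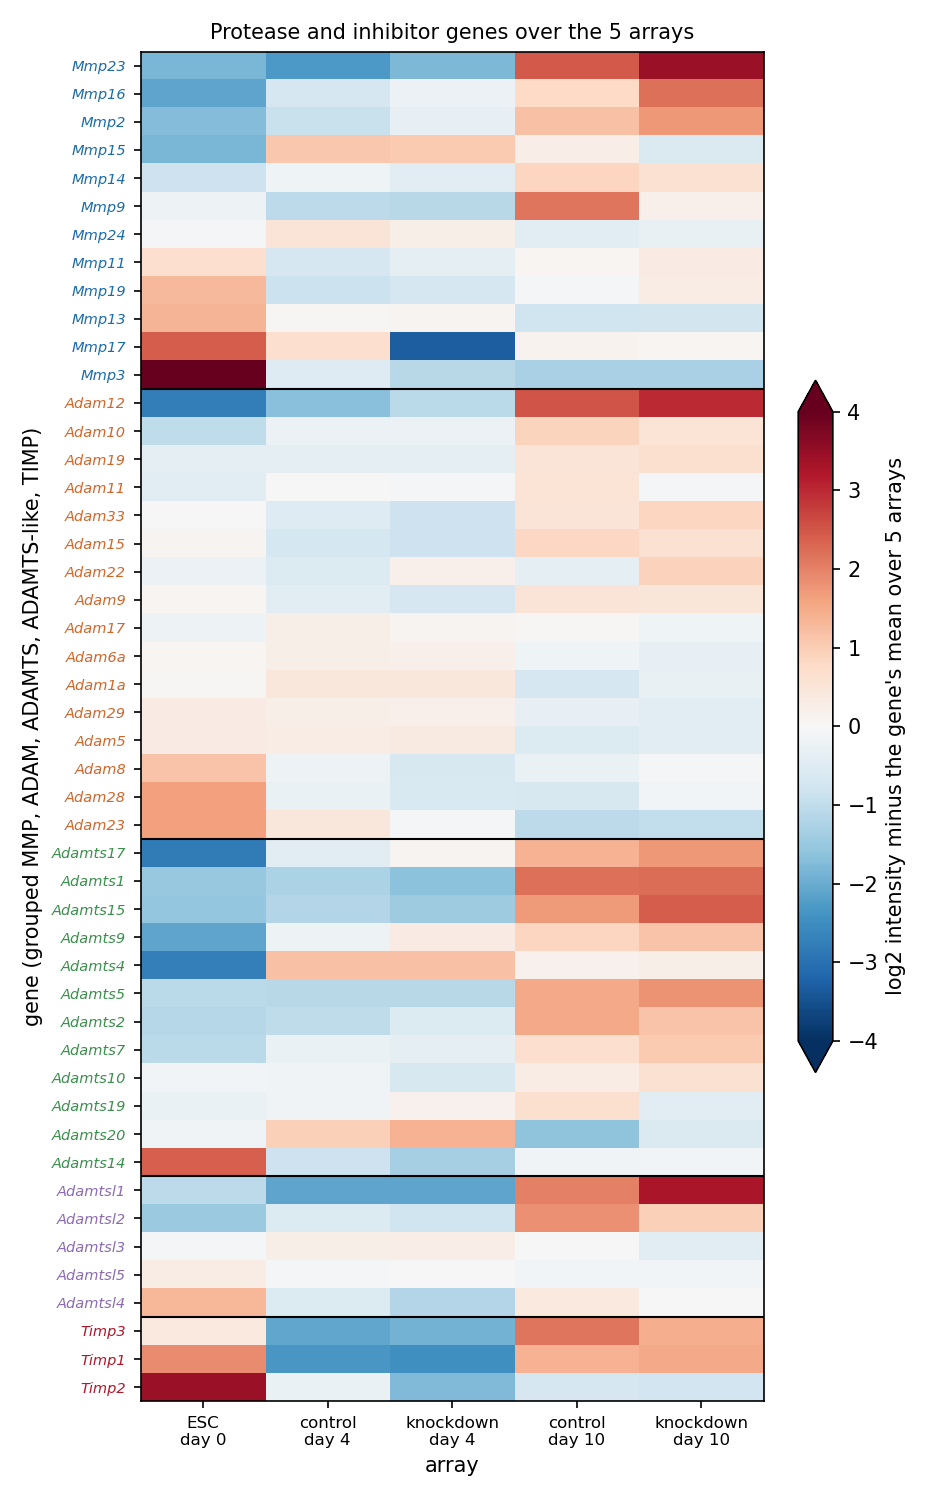
Log2 normalized intensity minus the mean of the 5 arrays (colour, scale ends at 4 either way) for the 48 members past the intensity filter on at least 1 array, ordered by family, with 1 column per array. Timp1, Timp2, Mmp3, Mmp17 and Adamts14 are high in ESCs, and Timp1, Timp3, Adam12, Adamts1 and Mmp23 are high in both day 10 arrays.

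Between ESCs and control day 4, the inhibitors and several secreted proteases were lower, and a smaller group led by Adamts4 and Mmp15 was higher. The filter left 41 members, of which 5 differed 2-fold or more upwards at control day 4 and 13 downwards, beside 12.8% higher and 13.9% lower of the 11293 genes compared. The median difference was 0 over the 76 members and 0 over all genes. Medians here and below, of members, families, lists and all genes, include genes below the filter. A gene at the floor on both arrays enters them as 0. On the values as deposited the split was 8 higher and 10 lower, beside 2289 higher and 1261 lower of 11670 genes. By family, counts higher and lower are given of the genes past the filter. They were 1 and 5 of 10 MMP, 0 and 3 of 14 ADAM and 4 and 1 of 11 ADAMTS genes. For ADAMTS-like genes they were 0 and 1 of 3, and for TIMP genes 0 and 3 of 3.

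Timp1, a soluble inhibitor of most MMPs, read 14.73 in ESCs, 10.52 and 10.37 in control and knockdown at day 4, and 14.22 and 14.35 at day 10. Timp3, which is held in the matrix and also blocks ADAM17 and aggrecan-cleaving ADAMTS enzymes, read 12.79 in ESCs, 10.31 and 10.50 at day 4, and 14.55 and 13.86 at day 10. Both were low in both day 4 arrays and high at day 0 and day 10, with 18.5-fold and 5.58-fold less at control day 4 than in ESCs. Timp2, which blocks MMPs and also helps MMP14 to activate MMP2, read 11.88 in ESCs, 8.16 at control day 4, the floor at knockdown day 4, and 7.76 and 7.65 at day 10. Unlike the other 2, it stayed below the filter in every differentiated group, and was 13.2-fold lower at control day 4 than in ESCs. Timp4, the inhibitor known from adult heart, passed the filter on no array: it read 7.26 in ESCs and 6.88 at knockdown day 10 and was at the floor on the other 3 arrays. The 3 TIMPs past the filter in ESCs were lower at control day 4, and the median over the 4 was -3.10 (-2.70 as deposited).

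**Figure D2:**
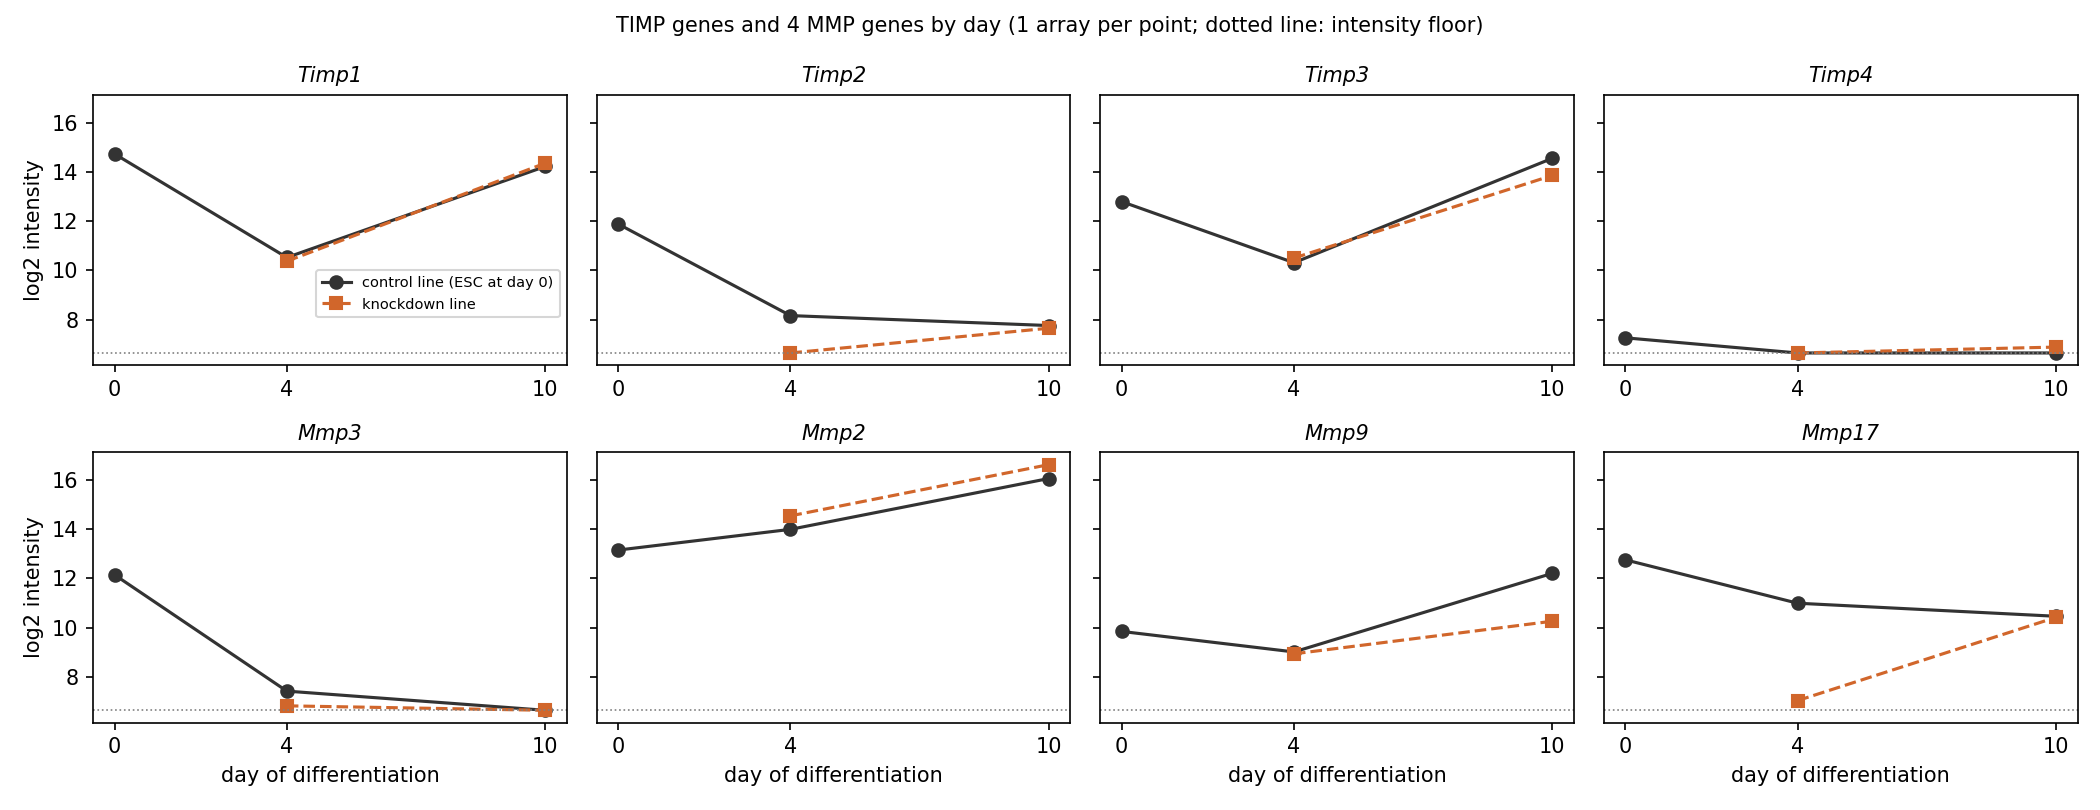
Log2 normalized intensity (vertical axis) by day (horizontal axis: 0, 4 and 10) for Timp1 to Timp4, Mmp3, Mmp2, Mmp9 and Mmp17, 1 panel each, with 1 point per array, control and knockdown in separate colours, and the floor as a dotted line. Timp1 and Timp3 dip at day 4, Mmp2 is higher at each later day, and Mmp17 is low in the knockdown array at day 4 and level with control at day 10.

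Among the MMPs lower at control day 4 than in ESCs were Mmp3, by 4.72 or 26.4-fold, Mmp19, Mmp17, Mmp11 and Mmp13. Mmp19, a soluble MMP of basement membranes, read 11.02 in ESCs, 8.88 and 9.06 in control and knockdown at day 4, and 9.67 and 10.03 at day 10, with 4.41-fold less at control day 4 than in ESCs. Mmp13 was 1.33 lower. Mmp15, a transmembrane MMP, was the single MMP past the filter that was at least 2-fold higher: it read 11.15 in ESCs, 14.07 and 14.03 at day 4, and 13.27 and 12.42 at day 10. Both day 4 arrays stood above both day 10 arrays and ESCs for this gene, and the step from ESCs was 7.53-fold. Mmp14, the transmembrane activator of MMP2, read 13.28 in ESCs, 13.95 and 13.65 at day 4, and 14.97 and 14.71 at day 10. Its first step, 0.67, did not reach 2-fold, though on the values as deposited those of Mmp14 and Mmp2 did, and Mmp16 was 1.45 higher below the filter.

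The ADAMTS family held most of the members that were higher at control day 4. Adamts4, an aggrecan- and versican-cleaving protease, read 7.09 in ESCs, 10.99 and 10.98 in control and knockdown at day 4, and 9.98 and 10.04 at day 10, a 14.9-fold step from ESCs to control day 4. Adamts17, a protease linked to fibrillin matrix, read 8.24 in ESCs, 10.60 and 11.16 at day 4, and 12.45 and 12.78 at day 10. Adamts9, another versican-cleaving protease, read 9.73 in ESCs, 11.63 and 12.17 at day 4, and 12.72 and 12.98 at day 10. Adamts4 was thus highest at day 4, whereas Adamts9 and Adamts17 were higher again at day 10. Adamts14, which trims procollagen, ran the other way: it read 11.69 in ESCs, 8.48 and 7.98 at day 4, and 9.17 and 9.19 at day 10, or 9.29-fold less at control day 4 than in ESCs. Adamts20 read 10.16 in ESCs and 11.25 at control day 4, but its step was below 2-fold with 75th percentile scaling, with loess centring and with the mean of its probes. The procollagen-trimming Adamts2 read 11.42 in ESCs and 11.54 at control day 4, a difference of 0.12, and Adamts10, a fibrillin-associated protease, read 12.05 and 12.03.

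In the ADAM family no member past the filter was at least 2-fold higher at control day 4, although Adam10 was on the values as deposited, and Adam12, below the filter, read 7.59 in ESCs and 8.69 at control day 4. Adam8, an ADAM of leukocytes and other cells, read 11.82 in ESCs, 10.49 and 10.06 in control and knockdown at day 4, and 10.42 and 10.63 at day 10. Adam23, a brain ADAM without protease activity, read 12.92 in ESCs, 11.75 and 11.22 at day 4, and 10.25 and 10.31 at day 10, lower at each later day. Adam28 read 9.81 in ESCs and 7.92 at control day 4 on its brightest probe, but its other 2 probes lay at or near the floor and differed by 0.28 and 0. The steps of Adam8, Adam23 and Mmp11 were below 2-fold on the values as deposited. The main sheddases differed less. Adam10, which releases Notch and cadherin ectodomains, read 11.73 in ESCs, 12.51 and 12.51 at day 4, and 13.64 and 13.29 at day 10. Adam17, which releases TNF and EGF family ligands, read 11.80 in ESCs, 12.22 and 12.12 at day 4, and 12.04 and 11.82 at day 10, within 0.42 of each other. Adam11, also without protease activity, read 10.13 in ESCs and 10.57 at control day 4, a difference of 0.44.

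Of 7 fibroblast and feeder markers listed, 6 were measured, and 3 of them were at least 2-fold lower at control day 4 than in ESCs. Their summed normalized intensity was 34406 in ESCs, 1836 and 1519 in control and knockdown at day 4, and 216773 and 227043 at day 10. Dcn read 13.80 in ESCs and 8.94 at control day 4, Postn 13.77 and 9.25, and Col1a2 12.39 and 8.27, while Col3a1 was at the floor in ESCs and both day 4 arrays and Lum in both day 4 arrays. Col1a1 read 7.29 and 7.84, below the filter. The part of feeder cells in the ESC values was not tested. In these bulk samples fewer cells of a type and less RNA per cell cannot be told apart.

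From day 4 to day 10, Timp1, Timp3, both gelatinases, Adam12 and 6 of 19 ADAMTS genes were at least 2-fold higher in control cells. The filter left 44 members, with 19 higher by 2-fold or more at day 10 and 4 lower, beside 19.1% higher and 19.4% lower of 11434 genes. The member median was 0.19 and that of all genes 0. As deposited, where the median of all genes shifted by -0.72, the split was 12 higher and 12 lower, beside 1092 and 5483 of 11398 genes. The balance of directions thus depended on the normalization, in the members and in all genes. Of the genes called, 82.6% of members and 49.6% of all genes were higher after quantile normalization, and 50% and 16.6% as deposited. Of the genes past the filter, the counts higher and lower were 5 and 0 of 11 MMP, 4 and 2 of 15 ADAM and 6 and 2 of 12 ADAMTS genes. For ADAMTS-like genes they were 2 and 0 of 4, and for TIMP genes 2 and 0 of 2. Family medians, which include genes below the filter or at the floor, were 0 for MMP and ADAM genes. They were 0.78 for ADAMTS (0 as deposited), 0.94 for ADAMTS-like (-0.05 as deposited) and 1.85 for TIMP genes (1.49 as deposited).

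The gelatinases were both higher at day 10. Mmp2, which cuts denatured collagen and type IV collagen, read 13.15 in ESCs, 13.99 and 14.54 in control and knockdown at day 4, and 16.06 and 16.62 at day 10. Both day 10 arrays were above both day 4 arrays, and the control step was 2.07 or 4.19-fold. Mmp9, the gelatinase made in quantity by neutrophils and macrophages, read 9.85 in ESCs, 9.01 and 8.94 at day 4, and 12.21 and 10.26 at day 10, a control step of 3.19 or 9.14-fold. Mmp23, a membrane-linked MMP without the usual hemopexin domain, read 8.28 in ESCs, 7.79 and 8.31 at day 4, and 12.55 and 13.54 at day 10. Its control step, 4.75 or 27.0-fold, was the largest among the members past the filter. Mmp14 was 1.03 higher, just past 2-fold, and Mmp16, another transmembrane MMP, read 6.95 in ESCs, 8.40 and 8.84 at day 4, and 9.88 and 11.29 at day 10. No MMP past the filter was at least 2-fold lower, although Mmp13, Mmp15, Mmp17 and Mmp24 were on the values as deposited, and Mmp21 read 8.26 and 7.24 below the filter. The transmembrane Mmp24, an MMP of the nervous system, read 13.47 and 12.55 at control day 4 and day 10, a difference of -0.92, Mmp13 differed by -0.84 and Mmp15 by -0.80.

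Timp1 and Timp3, the inhibitors that were low at day 4, were 13.0-fold and 18.9-fold higher at control day 10. Timp2 differed by -0.40 and did not pass the filter on either array. Inhibitors of another structure were counted beside them: of 15 listed, 14 were measured and 8 passed the filter, with 5 at least 2-fold higher at control day 10 and 2 lower, beside 19.1% and 19.4% of all genes, and a median of 0.87. Reck, a membrane-anchored MMP inhibitor, read 11.75 and 13.24 at control day 4 and day 10. A2m, a protease-trapping plasma protein, read 8.17 and 11.74, Serpine2, a thrombin inhibitor, 14.28 and 15.52, and Serping1, the C1 inhibitor, 9.20 and 12.69. Against them, Spint1, an inhibitor of membrane serine proteases in epithelia, read 12.89 and 10.31, and Spint2, of the same kind, 14.44 and 13.32.

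Of 7 proteoglycan-cleaving ADAMTS genes, 6 passed the filter, with 4 at least 2-fold higher at control day 10 and 2 lower, beside 19.1% and 19.4% of all genes. On the values as deposited Adamts5 and Adamts9 were no longer among the higher. Adamts1, a versican-cleaving protease of the developing heart, read 11.02 in ESCs, 11.27 and 10.89 in control and knockdown at day 4, and 14.73 and 14.78 at day 10. Adamts15, of the same group, read 10.44 in ESCs, 10.80 and 10.56 at day 4, and 13.68 and 14.38 at day 10. Both genes were near their ESC value at day 4 and 11.0-fold and 7.37-fold higher at control day 10. Adamts5, the main aggrecan-cleaving protease of cartilage, read 6.68 in ESCs, was at the floor in both day 4 arrays and read 9.27 and 9.55 at day 10, at least 2.63 higher in control cells. Its control value was just above the filter of 9.16, and the call was lost on the values as deposited, with 75th percentile scaling and with loess centring. Adamts20, known for its part in melanoblast migration, ran the other way: it read 10.16 in ESCs, 11.25 and 11.67 at day 4, and 8.68 and 9.71 at day 10. Its control difference was -2.58 on the brightest probe and -0.17 and at most -1.15 on its other 2 probes, which were dim. Adamts4 was 1.01 lower at control day 10, a call lost with loess centring. Adamts2, the procollagen-trimming protease with 2 probes, read 11.54 and 14.06 at control day 4 and day 10 on the brighter one, and the differences were 2.52 and 3.62.

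Adam12, an ADAM of muscle precursors and other mesenchymal cells, read 7.59 in ESCs, 8.69 and 9.27 in control and knockdown at day 4, and 12.88 and 13.36 at day 10, an 18.3-fold control step. Adam15, found in endothelium, read 11.81 in ESCs, 11.01 and 10.88 at day 4, and 12.54 and 12.34 at day 10, and its 2 probes differed by 1.53 and 1.54. Adam10 was 1.13 higher. These 3 were the ADAM genes with the highest control differences. On the values as deposited, the control steps of Adam10, Adam15, Adam33, Mmp14 and Mmp16 were no longer called, and that of Mmp14 was also lost with 75th percentile scaling. Adam23 read 11.75 and 10.25 at control day 4 and day 10, Adam1a, a fertilization gene, read 9.76 and 8.64, a call lost with loess centring, and Adam5, of the same tract, 9.95 and 9.11. Adamtsl1, an ADAMTS-like protein without a protease domain, read 8.53 in ESCs, 7.46 and 7.45 at day 4, and 11.57 and 12.82 at day 10. Adamtsl2, which binds fibrillin and affects TGF-beta in the matrix, read 7.04 in ESCs, 7.98 and 7.73 at day 4, and 10.35 and 9.48 at day 10. Both were higher in each day 10 array than in any earlier one. Adamtsl3, Adamtsl4 and Adamtsl5 differed by less than 2-fold over this interval: their control values at day 4 and day 10 were 9.93 and 9.65, 7.99 and 8.93, and 9.84 and 9.80. Adamtsl4, a microfibril protein, had been 1.87 lower at control day 4 than in ESCs.

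Marker sums of non-muscle cells were also higher at control day 10 than at day 4. The summed endothelial intensity over 5 of 5 genes was 6631 at control day 4 and 48765 at control day 10, and that of 4 of 4 epicardial genes 1349 and 17446, with 3 called higher and Aldh1a2 lower, at 9.37 and 7.96. Macrophage and myeloid markers, 5 of 5, summed to 2810 and 11558 with 3 called higher, in the interval in which Mmp9 was higher, and Csf1r and Adgre1 were at the floor at control day 4. Endoderm markers, 5 of 5, summed to 10910 and 93204 with 3 called higher. Against them, Foxa2 read 9.51 and 8.89 and Sox17 12.26 and 11.98. The fibroblast sum, given above, was also higher. Cardiomyocyte markers, 5 of 7 measured, summed to 5192 and 343845. The part of these cell types in the protease values was not tested.

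In the knockdown line the interval from day 4 to day 10 gave 22 members at least 2-fold higher and 2 lower of 44 past the filter, beside 18.7% higher and 18.1% lower of 11416 genes. As deposited the split was 17 and 11, beside 1408 and 4281 of 11808 genes. With scaling to the 75th percentile it was 20 and 7, beside 1952 and 2497 of 11272. The member median was 0.17 and that of all genes 0. Adamtsl1 was 41.2-fold higher, Mmp23 37.4-fold, Adam12 17.0-fold, Timp1 15.8-fold, Adamts1 14.9-fold, Adamts15 14.2-fold and Timp3 10.2-fold. Set beside the control course, Mmp17 differed most, with 3.38 in the knockdown line and -0.53 in the control line, since its knockdown value at day 4 was near the floor. The 2 lower genes were Adamts20, by 1.96, and Mmp15, by 1.61. Whether the lines differ in any of these courses was not tested.

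**Figure D3:**
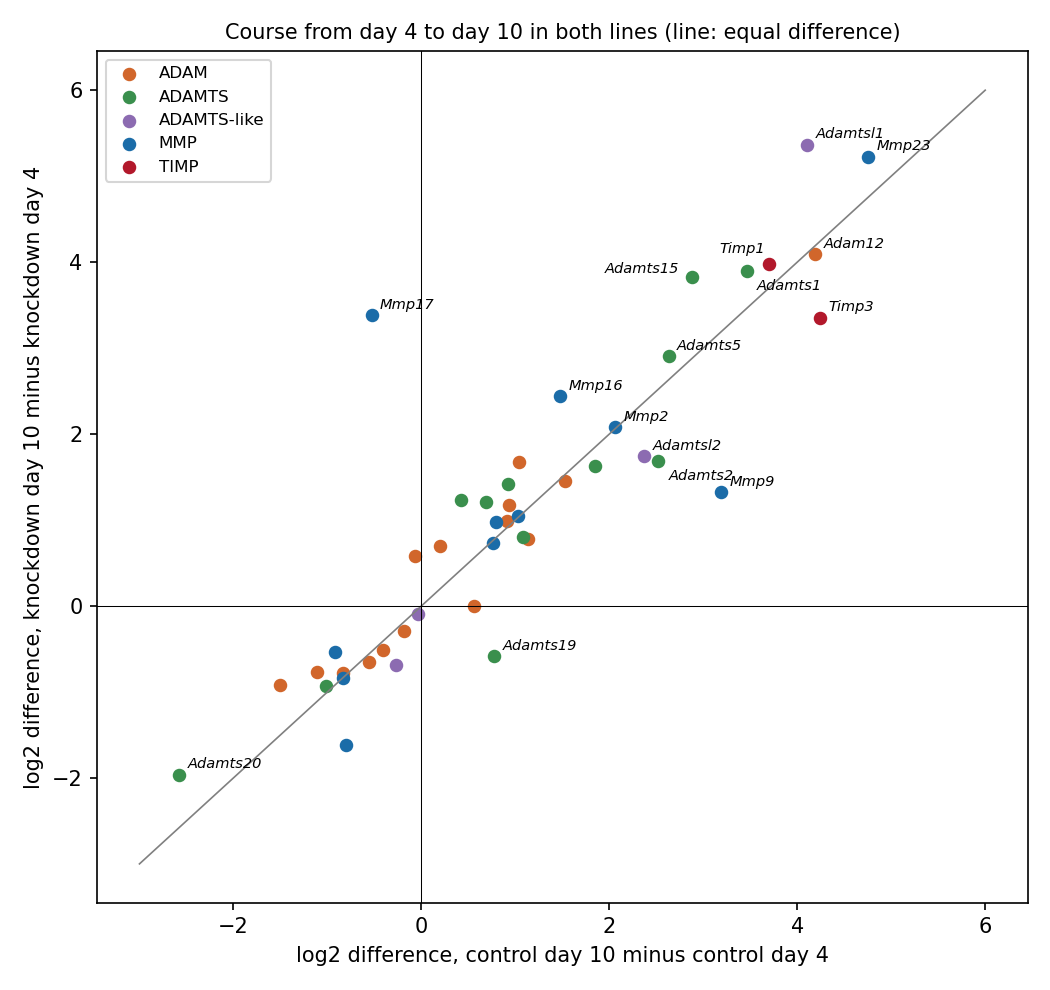
Log2 difference between day 10 and day 4 in the control line (horizontal axis) and in the knockdown line (vertical axis) for the 44 members past the filter in the control comparison, 1 point per gene coloured by family, with the line of equal differences. Adam12 and Mmp2 lie close to the line, Mmp17 stands apart at -0.53 and 3.38, and Mmp9 at 3.19 and 1.32.

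At day 4 Mmp17 was the one member past the filter that stood 2-fold or more apart between knockdown and control cells. The filter left 35 members, of which 0 were higher by 2-fold or more in the knockdown array and 1 was lower, beside 0.804% higher and 1.47% lower of 10699 genes. No test lies behind these counts, and the median was 0 over the members and 0 over all genes. Mmp17, an MMP tied to the membrane by a lipid anchor and expressed in muscle of vessel walls, read 12.76 in ESCs, 10.99 in control and 7.04 in knockdown at day 4, and 10.46 and 10.42 in control and knockdown at day 10. The knockdown array at day 4 was the single low value, 3.96 or 15.5-fold below its control, with deposited intensities of 2269 and 190. This rests on 1 probe and 1 array a group, and with a filter at the 75th percentile the gene was not compared. The next differences past the filter were below 2-fold: Adam22 was 0.77 and Adam12 0.58 higher, Mmp2 0.55, Adamts17 0.55 and Adamts9 0.54 higher, while Adam23 was 0.52 lower.

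Below the filter at day 4, control cells read 8.16 for Timp2 and knockdown cells the floor, so that Timp2 was at least 1.52 lower, and Adamts8, an ADAMTS of lung and heart, read 8.07 and 7.05 on its brighter probe, with -1.03 and -0.25 on its 2 probes. Both day 4 arrays of Timp1 and Timp3 were within 0.19 of each other. Mmp14 differed by -0.29, and Mmp15, Adamts4 and Adam10 by -0.03, -0.01 and 0.00. Mesoderm markers at day 4 summed to 79537 in control and 46844 in knockdown cells over 5 genes, with a median difference of -0.92. Of the 5, 1 was at least 2-fold lower, Mixl1, at -1.26. T differed by -0.94, Mesp1 by -0.92 and Kdr by -0.92, while Pdgfra was 0.28 higher. Endoderm markers summed to 10910 and 5106, with 2 of 5 called lower. Stem cell markers, 4 of 5 measured, summed to 13819 and 3500, with 1 called lower, Tdgf1, at -3.48. Endothelial markers summed to 6631 and 4641, with 1 of 5 called lower, Tie1, at -1.15. Fibroblast markers summed to 1836 and 1519. The part of such cells in the Mmp17 value was not tested.

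At day 10, 4 members were at least 2-fold higher in knockdown than in control cells, Mmp16, Adam22, Adamtsl1 and Adamts20, and 2 were lower, Mmp9 and Adamts19. These were of 41 past the filter, beside 2.5% higher and 3.61% lower of 10886 genes. The median was 0 over the members and 0 over all genes. As deposited, where the median of all genes shifted by 0.37, the split was 7 higher and 1 lower, beside 1093 and 160 of 10267 genes. Averaging the probes of each gene it was 2 and 2, beside 254 and 370 of 10642. No TIMP reached 2-fold: Timp1 differed by 0.13, Timp3 by -0.70 and Timp2, below the filter, by -0.11.

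**Figure D4:**
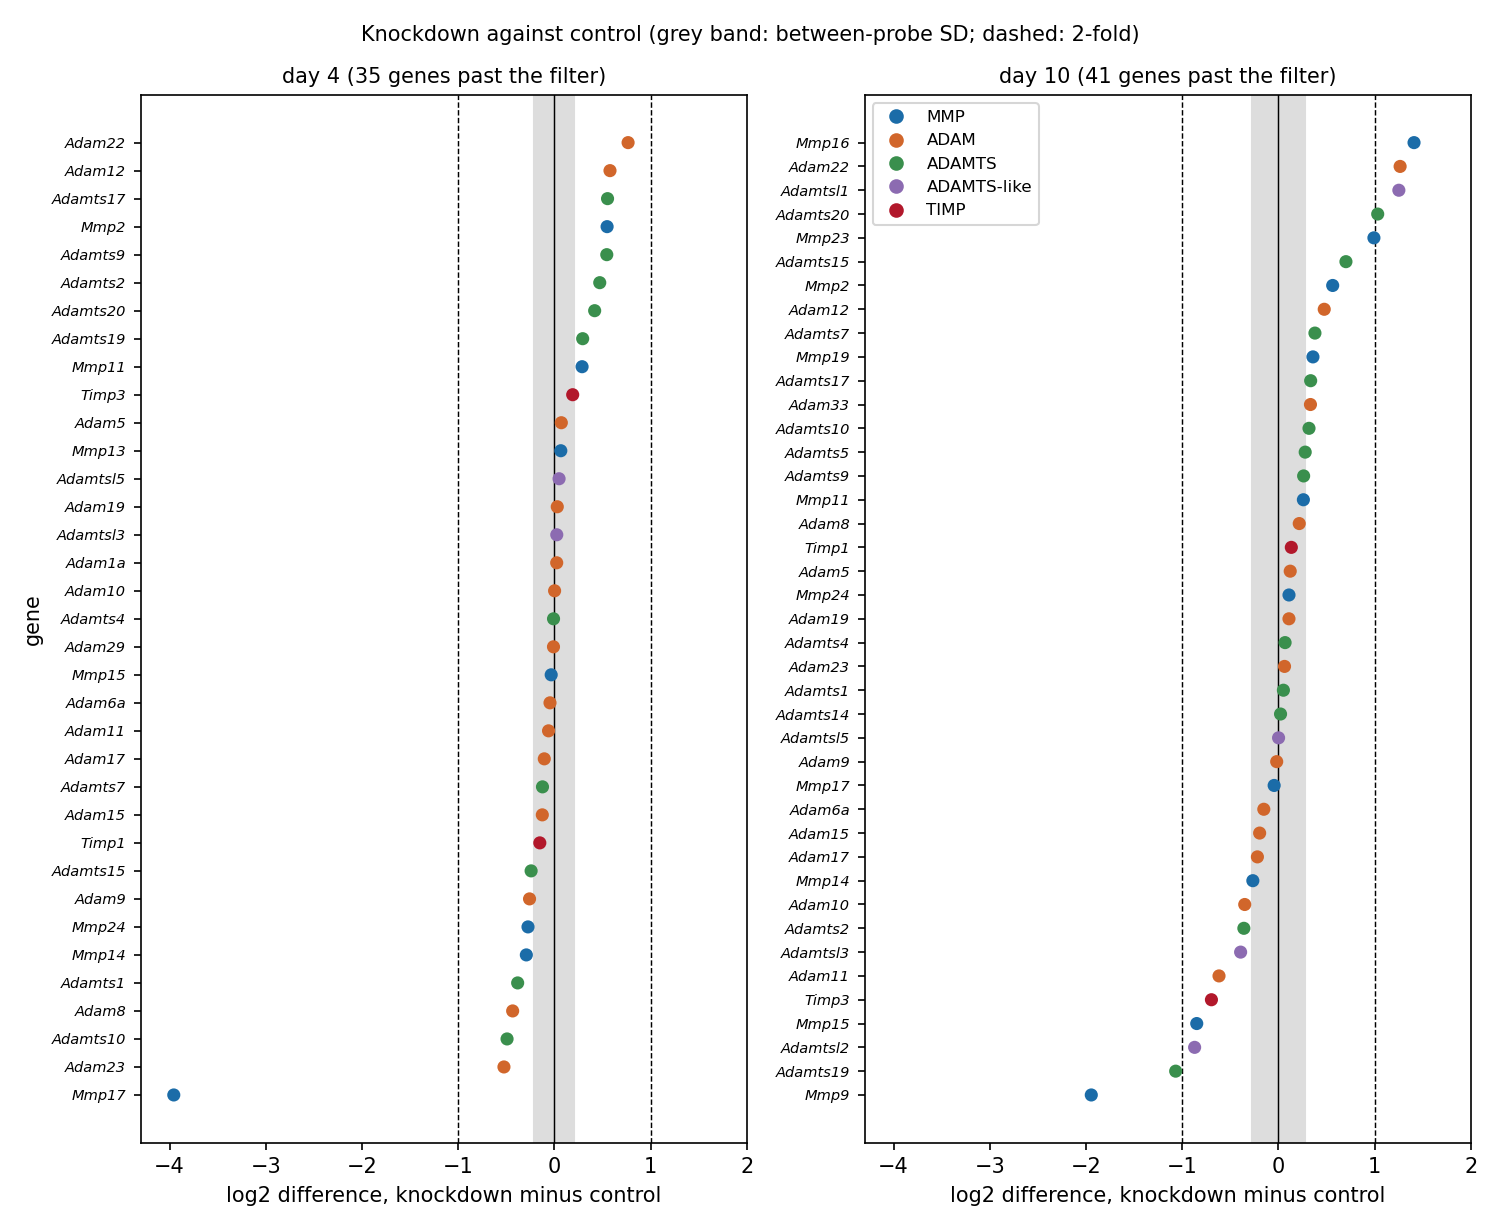
Log2 difference, knockdown minus control, for the members past the filter: 35 genes at day 4 and 41 genes at day 10, 1 point per gene coloured by family and ordered by size, with dashed lines at a 2-fold difference either way and a grey band for the SD between probes of a gene. Mmp17 stands alone at -3.96 at day 4, and at day 10 Mmp9 lies lowest at -1.95 and Mmp16 highest at 1.41.

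Mmp9 showed the largest day 10 difference, with 12.21 in control and 10.26 in knockdown cells, or 3.85-fold less. At day 4 its values had been 9.01 and 8.94, both below the filter. Macrophage and myeloid markers stood lower in the same array: the sum of 5 of 5 genes was 11558 in control and 5703 in knockdown cells, and all 5 had lower values, with differences of -1.38 for Csf1r, -1.25 for Ptprc, -1.18 for Adgre1, -0.86 for Cd68 and -0.83 for Cd14. Of these 5, 2 were past the filter and at least 2-fold lower. None was at the floor at day 10. Their part in the Mmp9 value was not tested.

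Mmp16, a transmembrane MMP that can activate MMP2, read 9.88 in the control and 11.29 in the knockdown array of day 10, 2.66-fold more, after 8.40 and 8.84 at day 4. Adamtsl1 read 11.57 and 12.82, 2.38-fold more, and had been equal within 0.01 at day 4. Each of these 2 genes had 1 probe. Mmp23 was 0.99 higher and so just short of 2-fold, Adamts15 was 0.70 and Mmp2 0.56 higher, and all 3 reached 2-fold on the values as deposited. Epicardial markers were higher in the same array, 4 of 4 genes, with a sum of 17446 in control and 91683 in knockdown cells and a median difference of 2.39. Their part in the values of Mmp16 and Adamtsl1 was not tested. Fibroblast markers summed to 216773 and 227043, and endothelial markers to 48765 and 49512. Endoderm markers summed to 93204 in control and 15117 in knockdown cells, with 3 of 5 called lower. Cardiomyocyte markers summed to 343845 and 198735, with 4 of 5 called lower and 1, Tnnt2, higher.

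Adam22, a synaptic ADAM without protease activity, read 11.76 in ESCs, 11.44 and 12.20 in control and knockdown at day 4, and 11.64 and 12.90 at day 10. Both knockdown arrays stood above both control arrays on this probe, by 0.77 at day 4 and 1.26 at day 10. Its second probe, below the filter, differed by 0.54 and 0.02, and the remaining probe lay at the floor on every array. Adamts20 read 8.68 and 9.71 on its brightest probe at day 10, a difference of 1.03, while its second probe differed by 0.22 and the remaining one was at the floor in both arrays. The calls of Adam22 and Adamts20 were both lost with the mean of all probes. Adamts19, an ADAMTS of heart valves among other tissues, read 9.60 in ESCs, 9.75 and 10.04 at day 4, and 10.53 and 9.46 at day 10. It was 1.07 lower in knockdown cells at day 10, and the call was lost on the values as deposited. Adamtsl2 differed by -0.87, and passed 2-fold with scaling to the 75th percentile and with loess centring.

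The partners and substrates of these enzymes were counted on lists chosen by function, with earlier results of these data known. Their counts describe these arrays and are no independent check. Among 30 matrix substrates, all measured, 26 passed the filter between ESCs and control day 4, with 4 at least 2-fold higher and 10 lower, beside 12.8% and 13.9% of all genes compared. From control day 4 to day 10, 28 passed, with 22 higher and 1 lower, beside 19.1% and 19.4%, and the median over the list was 1.75. Versican (Vcan), the proteoglycan cut by ADAMTS1, 4, 5, 9, 15 and 20, read 12.23 in ESCs, 13.42 and 13.24 in control and knockdown at day 4, and 16.00 and 15.29 at day 10. Col4a1, a basement membrane collagen cut by the gelatinases, read 12.43 in ESCs, 14.35 and 14.11 at day 4, and 16.21 and 15.36 at day 10. Both were higher at each later day in both lines, as Mmp2 was. They were among the 4 list genes higher at control day 4 than in ESCs, whereas the list median over that step was -0.47. Among the 10 lower genes, Spp1 differed by -6.49, Thbs1 by -5.75, Tnc by -5.16 and Dcn by -4.86. Fbn1, the microfibril protein fibrillin, read 12.62 and 15.37 at control day 4 and day 10, and Nid1, a basement membrane linker, 12.15 and 16.36. Against the list's median, Ncan, a proteoglycan of the nervous system, read 9.38 and 8.34, and Bcan, another, 9.57 and 8.71. Between knockdown and control, 0 of 24 past the filter were higher and 1 lower at day 4, beside 0.804% and 1.47% of all genes. The lower gene was Spp1, with 10.39 in the control and 9.28 in the knockdown array. At day 10, 0 of 26 were higher and 3 lower, beside 2.5% and 3.61% of all genes, with differences of -1.48 for Col2a1, -1.30 for Tnc and -1.28 for Ccn2.

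Of 24 activators and partners, 17 passed the filter between ESCs and control day 4, with 1 at least 2-fold higher and 5 lower, beside 12.8% and 13.9% of all genes. From control day 4 to day 10, 16 passed, with 7 higher and 2 lower, beside 19.1% and 19.4%. Bsg, the MMP inducer basigin, read 15.57 and 16.79 over the later interval, Plat, a plasminogen activator, 10.67 and 14.43, Plaur, the urokinase receptor, 8.23 and 10.65, and Rhbdf1, a carrier of ADAM17, 12.15 and 14.25. The lower genes were the tetraspanins Tspan5, with 11.88 and 10.02, and Tspan33, with 11.86 and 9.95, both partners of ADAM10. Furin, which removes the inhibitory part of many of these enzymes, read 12.05 in ESCs, 12.10 and 11.94 in control and knockdown at day 4, and 12.74 and 12.56 at day 10, and thus differed by less than 2-fold throughout. In knockdown cells 1 of 15 past the filter was lower at day 4, the proprotein convertase Pcsk5, with a difference of -1.13, and 1 of 16 at day 10, the hyaluronan receptor Cd44, with -1.76. None was higher, beside the shares of all genes given for the matrix list.

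Other extracellular and membrane proteases were measured for 37 of 38 genes. From control day 4 to day 10, 20 passed the filter, with 11 at least 2-fold higher and 1 lower, beside 19.1% and 19.4% of all genes. Corin, the protease that processes natriuretic peptide in heart muscle, was at the floor in ESCs and both day 4 arrays and read 12.19 and 11.91 in control and knockdown at day 10. Prss23, a secreted serine protease, read 14.36 in ESCs, 8.80 and 9.09 at day 4, and 14.80 and 14.55 at day 10. Both day 4 arrays were low, as for Timp1. In knockdown cells at day 10, beside 2.5% higher and 3.61% lower of all genes, 1 of 19 past the filter was higher, Cpz, a carboxypeptidase, by 1.32, and 4 were lower, among them Tmprss2, an epithelial membrane protease, with a difference of -2.93, and Htra1, a secreted serine protease, with -1.27. The inhibitors of other structure gave 1 higher there, Serping1, by 1.16, and 1 lower, Spint1, with a difference of -1.46.

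Membrane proteins that ADAM proteases release were measured for 22 of 25 genes, of which 20 passed the filter between ESCs and control day 4, with 10 at least 2-fold higher and 5 lower, beside 12.8% and 13.9% of all genes, and a list median of 0.84. N-cadherin (Cdh2) read 10.01 in ESCs and 14.01 at control day 4, the VEGF receptor Kdr 8.65 and 14.41, and E-cadherin (Cdh1), against them, 16.35 and 13.45. Between knockdown and control at day 4, 0 of 19 past the filter were higher and 1 lower, beside 0.804% and 1.47% of all genes. The lower gene was the Notch ligand Dll1, with a difference of -1.84. Below the filter, Ereg read 8.05 in control cells and the floor in knockdown cells, at least 1.40 lower. At day 10, 0 of 16 were higher and 0 lower, beside 2.5% and 3.61% of all genes. Adam10, the sheddase of Dll1, differed by 0.00 and -0.35 at day 4 and day 10.

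The remaining members past the filter were 7 in number. Mmp11, a stromelysin of stromal cells, read 13.06 in ESCs, 11.71 and 12.00 in control and knockdown at day 4, and 12.47 and 12.73 at day 10, and was 1.35 lower at control day 4 than in ESCs. Adam33, an ADAM of smooth muscle and mesenchyme, read 8.90 in ESCs, 8.37 and 8.07 at day 4, and 9.41 and 9.74 at day 10, a control step of 1.04 that was lost with every rescaling and with the mean of its 2 probes. Adam9, a widely expressed sheddase, read 13.38 and 13.12 at day 4 and 14.32 and 14.30 at day 10. Adam19, known from heart valve development, was 0.91 higher at control day 10 than at day 4 and Adamts7, known from vascular smooth muscle, 0.92. None of these genes reached 2-fold between knockdown and control. Adam6a and Adam29, of the reproductive tract, differed by less than 2-fold in all 5 comparisons. Adam2, Adam3, Mmp7, Mmp12, Mmp20 and Mmp27 were at the floor on all 5 arrays. A further 22 members passed the filter on no array: 9 ADAM, 7 ADAMTS and 5 MMP genes, and Timp4. For the 6 genes at the floor, the signal sets only an upper limit. The other 22 had values above the floor on at least 1 array, such as 8.94 for Mmp10 in ESCs, but too dim to be compared.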

How the data were processed

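Total RNA of 5 mouse cultures was read on 5 single-colour (Cy5) arrays. Linear probe intensities were deposited by the authors, from Agilent Feature Extraction 10.7.1.1 per the submitters' processing notes, and their normalization is not given here by any source used. Array medians differed, so intensities were quantile normalized over the 5 arrays, floored at 100 and taken to log2. The 26423 probes included 6046 unnamed here, and the others gave 17742 genes, each by its brightest probe. Differences in which an array lay at the floor are bounds. Genes were compared where the brighter array reached log2 9.16 and counted at 2-fold, and no test was possible with 1 array a group. Members and lists were chosen with earlier results of these data known. Members named with values were those 2-fold apart between knockdown and control, all TIMPs, and in each family the 3 highest and 3 lowest differences in each step of the control course, with others by count. On the fixed lists, up to 4 genes in the direction of the median and 2 against it were named, and values of a few further members and list genes were added after their values were seen. Alternatives changed the scaling, floor, filter, fold and probe rule. The counting was tested on simulated data in which a small set of bright probes was changed on 1 array. That setting does not cover dim genes or shifts as wide as those between the days here. The number of arrays limits the precision. Python 3.11.15, numpy 2.4.6, pandas 2.3.3 and statsmodels 0.14.6 were used.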

Additional observations from a re-analysis of the deposited data

Results flagged for a closer look

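Adamts19 is listed here because its difference between knockdown and control had opposite signs at the 2 days. It was 0.29 at day 4, from 9.75 in control and 10.04 in knockdown cells, and -1.07 at day 10, from 10.53 and 9.46. The difference between the days was not tested, since each value rests on 1 array a group.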

How the results depend on the processing

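The values as deposited had no normalization between arrays. For knockdown minus control at day 10 they gave 7 members higher and 1 lower, beside 1093 and 160 of 10267 genes. At control day 4 against ESCs 8 were higher, beside 2289 of 11670 genes. At control day 10 against day 4, 12 were higher and 12 lower, beside 1092 and 5483 of 11398 genes. For the same interval in the knockdown line 11 were lower, beside 4281 of 11808 genes. With 75th percentile scaling 7 were lower in that interval in the knockdown line, beside 2497 of 11272 genes. With loess centring 2 were lower in the control line, beside 1643 of 11398. For the knockdown, a filter at the 75th percentile left 0 lower at day 4, beside 33 of 5802 genes. At day 10 it left 2 higher and 1 lower, beside 116 and 181 of 5969. From ESC to control day 4 it left 1 higher and 6 lower, beside 677 and 761 of 6364. In the control interval 0 were lower, beside 1274 of 6579. In the knockdown interval 14 were higher and 1 lower, beside 1202 and 1194 of 6567. With no filter 3 members were lower in knockdown cells at day 4, beside 239 of 17742 genes. At control day 4 against ESCs 8 were higher without a filter, beside 1683 of 17742. A 4-fold threshold left 0 higher and 0 lower for the knockdown at day 10, beside 63 and 60 of 10886 genes. From ESC to control day 4 it left 3 higher and 6 lower, beside 450 and 658 of 11293. In the control interval 12 were higher and 1 lower, beside 967 and 462 of 11434. In the knockdown interval 11 were higher and 0 lower, beside 889 and 415 of 11416. The mean of all probes gave 2 higher for the knockdown at day 10, beside 254 of 10642 genes. Values of the named members and of the family medians, 1410 in all, were compared across the scaling, floor and probe settings. Of these, 1292 moved by less than the spread between probes, 118 moved more, and 0 changed sign after a call. Many of the 1410 could not move. A gene with 1 probe is unchanged by the mean of all probes, and a gene above the floors used is unchanged by the floor. The values as deposited held 92 of the 118, beside 143 values that moved less under that setting. The cause of these shifts was not tested beyond the settings themselves. No paired analysis was possible because each group held 1 array, and for the same reason no array could be left out.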
